A study of Rattus norvegicus albus with 6 samples.

Results

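Metallothioneins and the stress genes usually assigned to the transcription factor NRF2 were followed through 3 treatments of rat hepatic stellate cells, as 10 genes listed by symbol: Mt1, Mt2A, Hmox1, Nqo1, Gclc, Gclm, Txnrd1, Srxn1, Gsta4 and Akr1b8. Each of the 10 was named by at least 1 probe set of the array, and all 10 stood among the 10025 genes kept after the lowest 30% by mean level were left out of 14322 named genes. Where a gene had 2 probe sets (Mt1, Mt2A and Gsta4), the one with the higher mean over the arrays stood for it. The list was drawn up with earlier results of these arrays known, so its counts are descriptions.

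Stellate cells are the vitamin A-storing pericytes of the liver, which turn into matrix-producing myofibroblasts in fibrosis. Primary cells were activated by 7 days on plastic in low-glucose medium with serum and then received agents that interfere with canonical Wnt signalling. An adenovirus carrying the secreted Wnt antagonist DKK-1 (Ad.DKK-1) was set against one carrying green fluorescent protein (Ad.GFP), both at a multiplicity of infection of 200 for 24 h with serum and a further 24 h in serum-free medium. The small molecule ICG-001, an inhibitor of the β-catenin and CBP interaction, was used at 10 µM, and FJ9, which blocks the contact of Frizzled with Dishevelled, at 200 µM, each for 24 h without serum against its own vehicle. The vehicles are not named in the sources used here. Every group was 1 whole-transcript array of RNA pooled from 3 to 4 rats, so there were 6 arrays and no replicate, and no difference between a treated array and its control below carries a test. Differences are treated minus control on the log2 scale of the deposited RMA values (an array summary that is background-corrected and normalized between arrays), and a gene is counted as higher or lower from 1.5-fold.

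Metallothioneins are small cysteine-rich proteins that bind zinc, copper and cadmium and are induced through the metal-sensing factor MTF1. NRF2 (Nfe2l2) is held by KEAP1 for degradation in unstressed cells; electrophiles and oxidants modify KEAP1, and NRF2 then drives antioxidant response elements in genes of glutathione synthesis, the thioredoxin system, quinone reduction and heme breakdown. In activated stellate cells these systems buffer the oxidants made by NADPH oxidases.

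With FJ9, 8 of the 10 genes were higher than on its vehicle array and 1 was lower, against 11.6% higher and 14.8% lower of all 10025 genes. The median difference of the 10 genes was 2.24, beside 0.01 over all genes. Without the metallothioneins the median was 1.87. The 8 genes were also past 1.5-fold from the vehicle array of ICG-001, a pattern shown by 9.45% of all genes; against that vehicle alone 9 were higher and 1 lower, beside 15.8% and 17.2%. Ad.DKK-1 had 6 genes higher and 1 lower, against 14.5% and 20.8% of all genes, with a median of 0.80 beside −0.07 over all genes. ICG-001 had 3 higher and 1 lower, against 12.6% and 13.1%, with a median of 0.28 beside 0.01. Against the vehicle of FJ9, ICG-001 had 1 higher and 1 lower, beside 12.5% and 12.2%. From 2-fold, 8 genes were higher with FJ9, 2 with Ad.DKK-1 and 2 with ICG-001, beside 2.44%, 3.99% and 2.89% of all genes. The counts against own controls at 1.5-fold were the same after median centring, repeated quantile normalization and cyclic loess. Over all genes, centring each array on its median gave 2218 higher and 754 lower for ICG-001 in place of 1267 and 1314, and 1874 higher and 1681 lower for Ad.DKK-1 in place of 1449 and 2082, and moved the all-gene median for ICG-001 to 0.18.

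**Figure D1:**
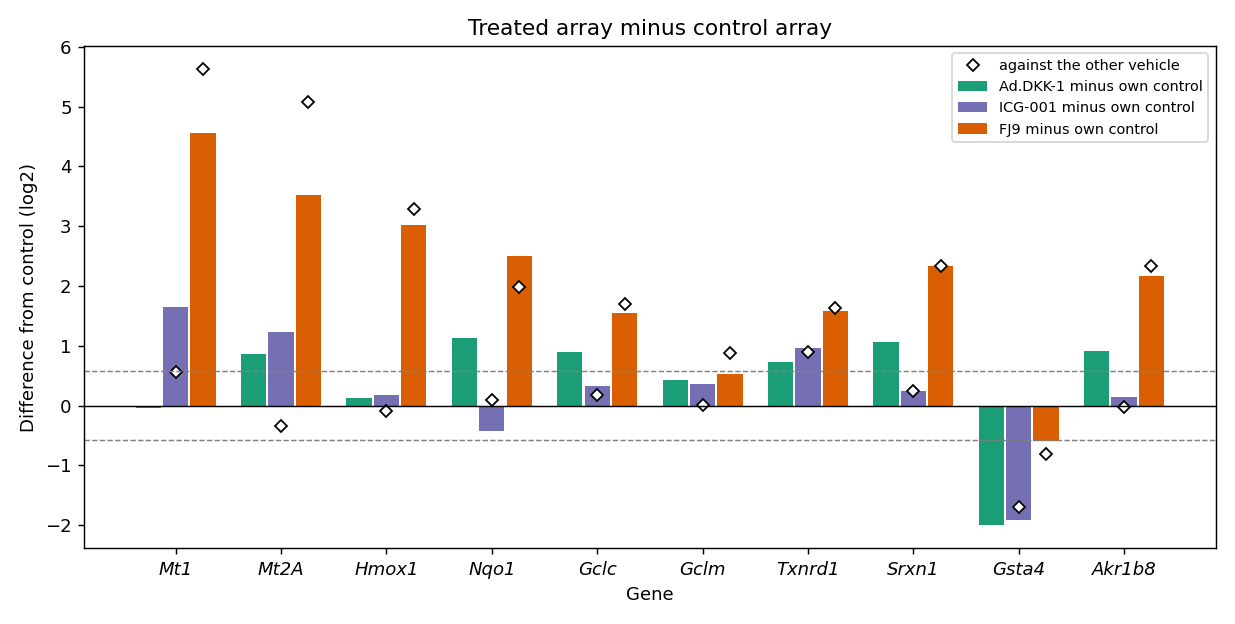
Difference of each treated array from its own control (bars, log2) for the 10 genes, with the compounds' differences from the other compound's vehicle array as diamonds; dashed lines mark 1.5-fold, and each bar is 1 array minus 1 array. The FJ9 bars run from −0.60 for Gsta4 to 4.56 for Mt1, and Gsta4 is the gene whose bars all point down.

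Mt1 read 11.81 on the FJ9 array, 7.26 on its vehicle, 7.82 with ICG-001, 6.18 on the vehicle of ICG-001, 8.59 with Ad.DKK-1 and 8.64 with Ad.GFP. The FJ9 array stood above the other 5, and the control arrays themselves spread over 6.18 to 8.64. Mt1 was 23.5-fold higher with FJ9 than with its vehicle, rank 2 of 10025 genes. The fold against the vehicle of ICG-001 was 49.6, from a level there (6.18) that lies under the level filter of 6.39, so its size is uncertain. Ad.DKK-1 differed from Ad.GFP by −0.05. The ICG-001 difference was 1.64 from its own vehicle but 0.56 from the vehicle of FJ9, under 1.5-fold.

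Mt2A, the neighbouring metallothionein gene, read 11.50 with FJ9, 7.98 on its vehicle, 7.64 with ICG-001, 6.42 on the vehicle of ICG-001, 8.40 with Ad.DKK-1 and 7.54 with Ad.GFP. Again the FJ9 array stood far above the rest. It was 11.5-fold higher with FJ9 than with its own vehicle (rank 4) and 33.9-fold higher than with the other vehicle. With ICG-001 the difference turned from 1.22 against its own vehicle to −0.34 against the vehicle of FJ9, so its direction rested on the vehicle array. Ad.DKK-1 was higher than Ad.GFP by 0.86, where Mt1 was level.

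Among the 10 genes, the vehicle arrays differed most for the metallothioneins. The vehicle array of FJ9 exceeded that of ICG-001 by 1.08 for Mt1 and by 1.56 for Mt2A, while the other 8 genes differed by between −0.52 (Nqo1) and 0.36 (Gclm). Of all genes, 2.44% were at least 1.5-fold higher on the vehicle of FJ9 and 5.2% lower. Ad.GFP cultures, which also differed from the vehicle cultures in serum and length of treatment, read 2.46 and 1.38 above the vehicle arrays of ICG-001 and FJ9 for Mt1. For Mt2A the same differences were 1.12 and −0.44.

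The second probe sets of the metallothioneins put the FJ9 result on another set of probes, though the genes are close in sequence and their probes may share signal. For Mt1 it gave 4.55 with FJ9, 1.60 with ICG-001 and −0.01 with Ad.DKK-1, close to the first in each comparison. For Mt2A it gave 3.99 with FJ9 and 1.28 with Ad.DKK-1. With ICG-001, however, the second Mt2A probe set differed by 0.07 where the first differed by 1.22, and the vehicle arrays differed by 0.66 where the first gave 1.56. The Mt2A difference with ICG-001 thus depended on the probe set as well as on the vehicle.

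**Figure D2:**
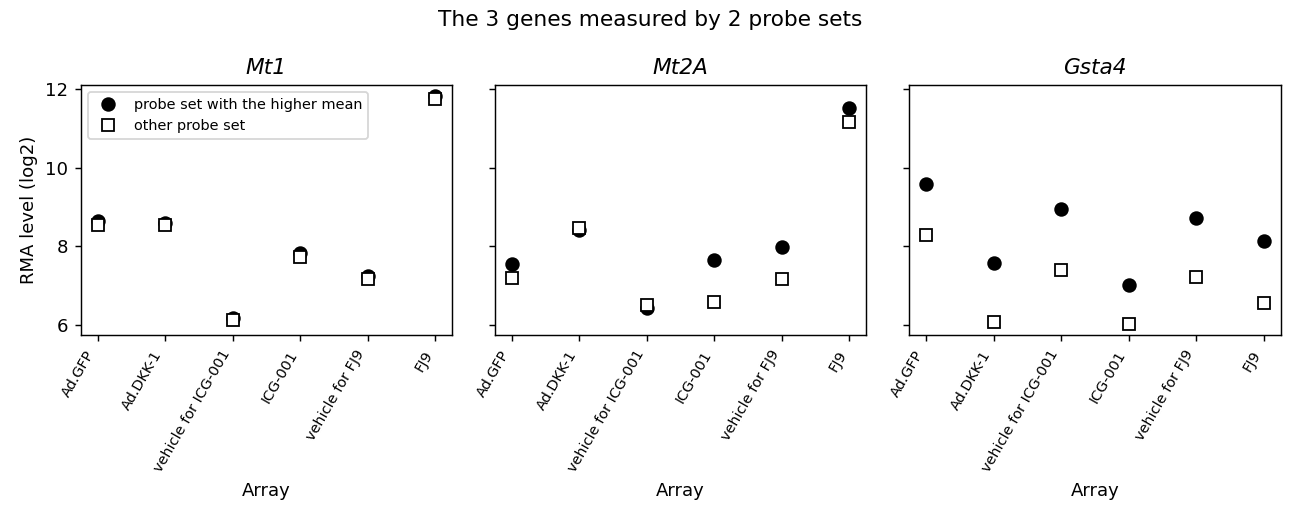
RMA level (log2) of the 3 genes with 2 probe sets on each of the 6 arrays; filled circles are the probe set with the higher mean and open squares the other, 1 value per array. The Mt1 probe sets overlie each other, the Mt2A probe sets part on the ICG-001 array (7.64 and 6.59) and on the vehicle of FJ9, and both Gsta4 probe sets are lower on each treated array than on its control.

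Hmox1 encodes heme oxygenase 1, which splits heme into iron, carbon monoxide and biliverdin. It read 11.74 with FJ9, 8.73 on its vehicle, 8.64 with ICG-001, 8.46 on the vehicle of ICG-001, 9.41 with Ad.DKK-1 and 9.29 with Ad.GFP. The FJ9 array alone departed from its control: 8.08-fold higher, rank 8, and 9.73-fold higher than the other vehicle. Ad.DKK-1 and ICG-001 differed from their own controls by 0.13 and 0.18.

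Macrophages are a rich source of heme oxygenase in liver, and in RNA from a whole culture fewer cells of a type and less RNA per cell cannot be told apart. Of 12 Kupffer cell and macrophage markers on the array, 4 passed the level filter. Of all 12, filtered or not, 4 were past 1.5-fold lower with FJ9 than with its vehicle and none was higher, with a median of −0.50. Among genes past the filter 14.8% were lower, and without the filter 1764 of 14322 genes. Csf1r (−1.37) and Cd14 (−1.47) were among the 4, while Cd68 (−0.44), Cd163 (0.21) and Tyrobp (0.19) did not pass. Against the other vehicle, 1 of the 12 was higher with FJ9, Tyrobp (0.61), and 5 were lower. Of genes past the filter, 15.8% were higher and 17.2% lower there. Cd68 (0.18) and Lyz2 (0.42) also lay above the other vehicle, under 1.5-fold. The mean level of the 12 was 6.38 with FJ9 and 6.95 on its vehicle, 6.11 and 6.75 for ICG-001 and its vehicle, and 6.15 and 7.08 for Ad.DKK-1 and Ad.GFP. The part of these cells in the level of Hmox1 was not tested. Clec4f, a Kupffer cell marker, read between 4.99 and 6.17, under the level filter, where the floor of the values is 4.

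Nqo1 encodes the quinone reductase that is often read as a marker of NRF2 activity and is also a target of the aryl hydrocarbon receptor. It read 10.88 with FJ9, 8.38 on its vehicle, 8.48 with ICG-001, 8.90 on the vehicle of ICG-001, 9.57 with Ad.DKK-1 and 8.45 with Ad.GFP. FJ9 was 5.65-fold higher than its own vehicle (rank 16) and 3.93-fold higher than the other. Ad.DKK-1 was 2.18-fold higher than Ad.GFP, the largest upward difference of the 10 genes in that comparison. With ICG-001, Nqo1 differed by −0.43 from its own vehicle and by 0.09 from the vehicle of FJ9.

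Akr1b8 encodes an aldo-keto reductase that clears reactive aldehydes. Its levels were 12.13 with FJ9, 9.97 on its vehicle, 9.95 with ICG-001, 9.81 on the vehicle of ICG-001, 10.61 with Ad.DKK-1 and 9.69 with Ad.GFP. The 3 control arrays and ICG-001 lay within 0.28 of each other. FJ9 was 4.47-fold higher than its vehicle, rank 27, and Ad.DKK-1 1.89-fold higher than Ad.GFP.

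Srxn1 encodes sulfiredoxin, which repairs over-oxidized peroxiredoxins. It read 11.13 with FJ9, 8.80 on its vehicle, 9.04 with ICG-001, 8.80 on the vehicle of ICG-001, 9.71 with Ad.DKK-1 and 8.64 with Ad.GFP. Both vehicle arrays agreed to 0.01. FJ9 was 5.01-fold above its vehicle (rank 18) and Ad.DKK-1 2.09-fold above Ad.GFP, while ICG-001 differed by 0.25.

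Txnrd1 encodes cytosolic thioredoxin reductase, the selenoprotein that keeps thioredoxin reduced. It read 11.54 with FJ9, 9.97 on its vehicle, 10.87 with ICG-001, 9.91 on the vehicle of ICG-001, 10.30 with Ad.DKK-1 and 9.57 with Ad.GFP. All 3 treated arrays lay above all 3 control arrays. The differences were 1.58, 0.96 and 0.73, and ICG-001 remained 1.87-fold higher against the vehicle of FJ9. Txnrd1 was the 1 gene of the 10 that was past 1.5-fold upward with ICG-001 against both vehicle arrays, as were 8.33% of all genes. Txnrd1 and Mt2A were past 1.5-fold upward with all 3 treatments against own controls, as were 2.41% of all genes.

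Gclc and Gclm encode the catalytic and modifier subunits of glutamate-cysteine ligase, the first step of glutathione synthesis. Gclc read 11.19 with FJ9, 9.63 on its vehicle, 9.81 with ICG-001, 9.49 on the vehicle of ICG-001, 10.33 with Ad.DKK-1 and 9.44 with Ad.GFP. It was 2.93-fold higher with FJ9, 1.86-fold higher with Ad.DKK-1 and 1.25-fold higher with ICG-001. Gclm read 9.53, 9.01, 9.01, 8.65, 9.31 and 8.88 on the same arrays in the same order. The subunit genes therefore differed in size of response: Gclm was 1.44-fold higher with FJ9 than with its own vehicle, short of the limit, and 1.84-fold higher than with the other vehicle. Its SD over the 6 arrays was 0.31, the smallest of the 10 genes, which ranged up to 1.91 for Mt1.

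Gsta4, a glutathione transferase that conjugates the lipid peroxidation product 4-hydroxynonenal, went the other way. It read 8.12 with FJ9, 8.72 on its vehicle, 7.02 with ICG-001, 8.94 on the vehicle of ICG-001, 7.58 with Ad.DKK-1 and 9.59 with Ad.GFP. Each treated array lay below every control array. Gsta4 was 4.01-fold lower with Ad.DKK-1 (rank 83 from the lowest), 3.77-fold lower with ICG-001 (rank 50) and 1.51-fold lower with FJ9, just past the limit. Of all genes, 3.14% were at least 1.5-fold lower with all 3 treatments. The second probe set gave −2.19, −1.37 and −0.65 in the same order. Against the other vehicle arrays the first probe set differed by −1.70 with ICG-001 and by −0.81 with FJ9; it was the 1 gene of the 10 lower with ICG-001 than on both vehicle arrays, as were 7.37% of all genes.

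**Figure D3:**
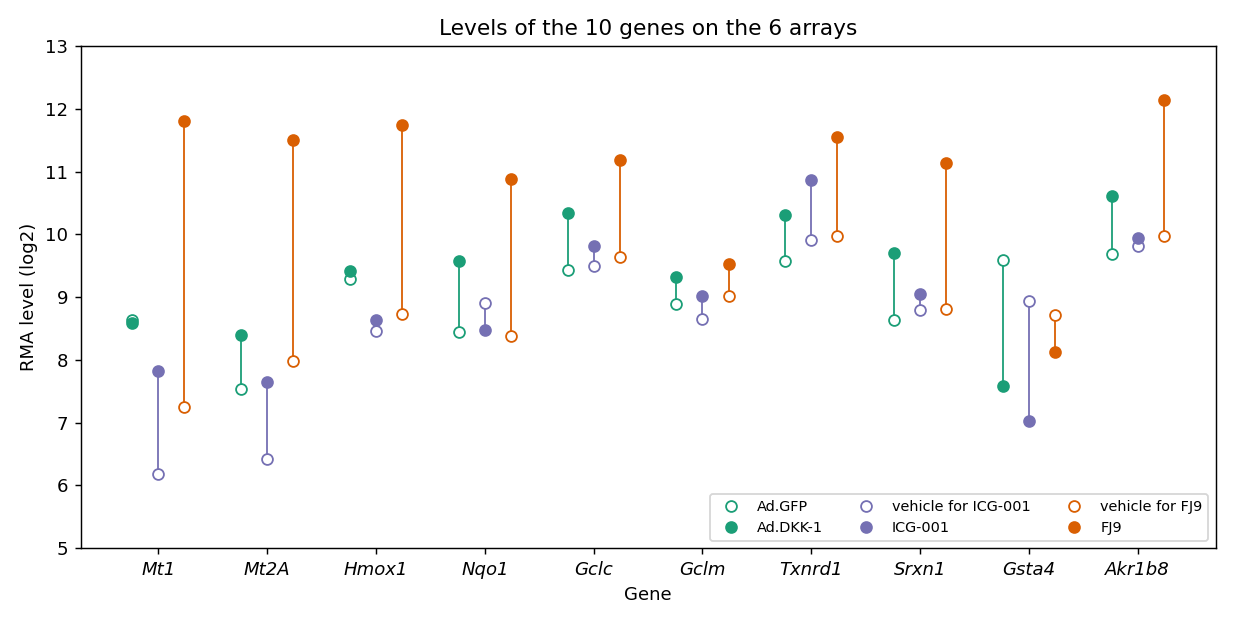
RMA level (log2) of the 10 genes on each array; open circles are control arrays, filled circles treated arrays, and a line joins each treated array to its own control, 1 array per circle. The FJ9 circle is the highest of the 6 for every gene but Gsta4, where it reads 8.12 and the highest is Ad.GFP at 9.59.

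The FJ9 array was the highest of the 6 for 9 of the 10 genes, against 18.4% of all genes. For the same 9 genes it lay above every control array, as it did for 33.6% of all genes. Averaged over the 10 genes after centring each gene on its mean, the FJ9 array stood at 1.70, Ad.DKK-1 at 0.12, Ad.GFP at −0.28, the vehicle of FJ9 at −0.41, ICG-001 at −0.43 and the vehicle of ICG-001 at −0.70. The largest step in that order is thus between FJ9 and Ad.DKK-1. Over the 6 arrays, Pearson's r of each gene with the mean of the other 9 was 0.99 for Hmox1, 0.97 for Mt2A and Akr1b8, and 0.75 for Txnrd1. For Gsta4 it was −0.30. These values rest largely on the FJ9 array and are descriptions over 6 arrays.

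**Figure D4:**
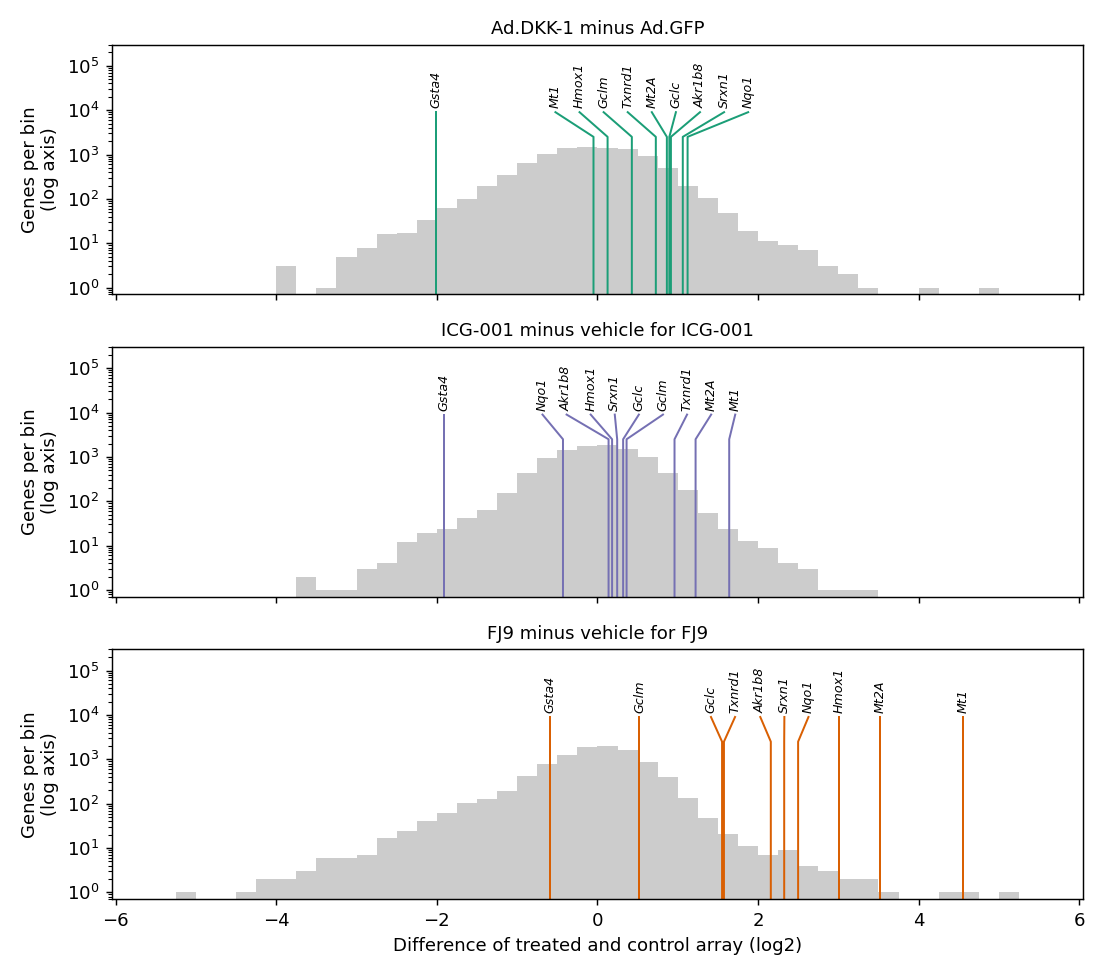
Differences of all 10025 genes from own control in bins of the log2 difference (grey, number of genes on a log axis), with the 10 genes marked by lines, 1 panel per treatment and 1 array on each side. With FJ9, 8 of the lines stand at 1.55 or more, while with ICG-001 6 of the 10 lie between −0.43 and 0.36.

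The mean difference over the 3 treatments was tested with limma, blocked by pair of treated array and control. Because the pairs received unlike agents, the test speaks of their average and of no single treatment. Benjamini-Hochberg adjusted p-values under 0.05 over 10025 genes were reached by 3.56% of genes upward and 5.02% downward. Of the 10 genes, 6 rose and 1 fell by this test. Txnrd1 rose by 1.09 ± 0.21 (SE, limma adjusted p = 0.0049), Mt2A by 1.87 ± 0.38 (limma adjusted p = 0.00808) and Srxn1 by 1.21 ± 0.30 (limma adjusted p = 0.0225). Gclc rose by 0.92 ± 0.23 (limma adjusted p = 0.0229), Akr1b8 by 1.07 ± 0.29 (limma adjusted p = 0.0321) and Mt1 by 2.05 ± 0.55 (limma adjusted p = 0.0324). Gsta4 fell by 1.51 ± 0.28 (limma adjusted p = 0.00445), lower in all 3 pairs.

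Nqo1 (mean 1.06, limma adjusted p = 0.0952), Hmox1 (1.11, 0.108) and Gclm (0.44, 0.201) did not pass. Txnrd1 and Gsta4 passed in all 10 settings tried, with adjusted p between 0.000539 and 0.0418 for Txnrd1 and between 3.43e-07 and 0.0412 for Gsta4 over the 9 alternatives. Mt2A passed in 9, Gclc in 6, Srxn1 in 5, Akr1b8 in 4 and Mt1 in 3. Without the FJ9 pair, 2 genes were called higher (Mt2A and Txnrd1) and Gsta4 lower. None of the 10 settings changed the probe set or the vehicle array. Mt2A with ICG-001 entered the main setting at 1.22, where the second probe set gave 0.07 and the other vehicle −0.34. The calls of Mt2A, also without the FJ9 pair, do not cover that dependence.

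Among the regulators of this response, Nfe2l2 itself was higher with FJ9 by 0.72, and by 0.62 against the other vehicle, and differed by 0.42 with ICG-001 and 0.10 with Ad.DKK-1. Keap1 differed by 0.19, −0.34 and 0.42 in the same order. Of the 15 regulators and partners measured, 5 were higher and 1 lower with FJ9, beside 11.6% and 14.8% of all genes, with a median of 0.19. The 5 included Bach1, a repressor that competes with NRF2 at the heme oxygenase gene (1.16), Sqstm1, the autophagy receptor p62 that binds KEAP1 (1.14), and the small Maf partner Mafg (1.07). Ad.DKK-1 gave 3 higher and 1 lower, beside 14.5% and 20.8% of all genes, led by another small Maf gene, Mafk (1.60), which read 0.78 with ICG-001 and 0.68 with FJ9. ICG-001 gave 3 higher and none lower, beside 12.6% and 13.1%. One of these 3 was Bach2 (1.12), which passed the level filter only through the ICG-001 array, so its place in the count rests on that array. Bach2 was also the 1 lower with FJ9 (−0.96) and with Ad.DKK-1 (−0.72). Mafk and Sqstm1 were called higher in the limma mean over the 3 pairs.

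Among other genes of metal handling, Mtf1, the metal-sensing factor, differed by 0.30 with FJ9, 0.45 with ICG-001 and 0.63 with Ad.DKK-1. Of the 16 other genes of the zinc list, 1 was higher and 2 lower with FJ9, beside 11.6% and 14.8% of all genes: the zinc and manganese importer Slc39a8 at 1.06, and the importers Slc39a13 at −1.43 and Slc39a10 at −0.71. Against the vehicle of ICG-001, 2 were higher and 4 lower, beside 15.8% and 17.2%. Slc30a1, a zinc exporter that MTF1 also induces, differed by 0.05 with FJ9, and Mt3 by −0.29; both were singled out after their values were seen. With Ad.DKK-1, 4 were higher and none lower, beside 14.5% and 20.8%, led by Slc39a14 (1.01), Slc30a5 (0.88) and Slc39a7 (0.67). With ICG-001 none was higher and 2 lower, beside 12.6% and 13.1%, of which Slc30a10 (−1.73) became 0.88 against the vehicle of FJ9. The ICG-001 median of this list, −0.12, turned to 0.05 with median centring, and its counts to 4 higher and 1 lower.

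In glutathione metabolism, the 14 genes beside Gclc and Gclm were divided. Slc7a11, the cystine importer that supplies cysteine for glutathione, was higher by 3.20 with FJ9, 2.41 with Ad.DKK-1 and 1.25 with ICG-001, and rose in the limma mean. Chac1, which degrades glutathione and is a target of the amino acid stress factor ATF4, was higher by 1.03, 1.42 and 1.15 and also passed. Glutaredoxin Glrx was lower by each treatment (−1.61, −1.40 and −0.83) and fell in the limma mean. In all, 3 were higher and 4 lower with FJ9 (median −0.11), 3 and 4 with Ad.DKK-1 (median −0.35) and 3 and 1 with ICG-001 (median −0.24). The shares of all genes higher and lower were 11.6% and 14.8%, 14.5% and 20.8%, and 12.6% and 13.1% in that order. Against the exchanged vehicles, ICG-001 had 2 higher and 5 lower (median −0.23), beside 12.5% and 12.2%, so its balance rested on the vehicle array. FJ9 had 3 higher and 4 lower there (median 0.13), beside 15.8% and 17.2%. Ggct, an enzyme of the gamma-glutamyl cycle, stood at 3.09 with Ad.DKK-1 and at −0.45 with FJ9.

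Among the 12 other genes of the thioredoxin and peroxiredoxin list, 1 was higher and 2 lower with FJ9, near the 11.6% and 14.8% of all genes. Txnip, the thioredoxin-binding inhibitor that responds to glucose, was lower by 2.68 with FJ9, and Sesn1 by 0.85, while the peroxiredoxin Prdx5 was higher by 0.69. Txnip read 7.29 with FJ9 and 9.97 on its vehicle, and the vehicle arrays differed by 1.00. Ad.DKK-1 gave 1 higher and 2 lower, near the 14.5% and 20.8% of all genes. ICG-001 gave 1 higher and none lower, beside 12.6% and 13.1%. The 1 higher was Txnip at 0.92, which became −0.08 against the other vehicle.

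Of the 27 other quinone, aldehyde and conjugation enzymes, 6 were higher and 2 lower with FJ9, 3 and 6 with ICG-001, and 1 and 9 with Ad.DKK-1, with medians of 0.24, 0.05 and −0.50. Over all genes 11.6% were higher and 14.8% lower with FJ9, 12.6% and 13.1% with ICG-001, and 14.5% and 20.8% with Ad.DKK-1. Gstp1 (1.08) and Gstt2 (1.05) were among those higher with FJ9, and Nqo2, the relative of Nqo1, was lower (−1.28). Gstm2, a glutathione transferase, was lower with all 3 (−1.09, −0.77 and −0.87 for FJ9, ICG-001 and Ad.DKK-1) and fell in the limma mean. With Ad.DKK-1 the lowest were Mgst1 (−2.09), the epoxide hydrolase Ephx1 (−1.31) and Gstt1 (−1.08), so the array on which Nqo1, Srxn1 and Akr1b8 were higher had lower levels of several conjugating enzymes. Glutathione transferases are a large family of related sequences, and their probe sets may share signal.

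Heme and iron genes other than Hmox1 gave 4 higher and none lower of 13 with FJ9, beside 11.6% and 14.8% of all genes. They included the transferrin receptor Tfrc (0.86), the ferritin heavy chain Fth1 (0.83) and the iron exporter ferroportin, Slc40a1 (0.81). The remaining one, the ferritin light chain Ftl1, was named after its values were seen and stood at 0.74. ICG-001 gave 0 higher and 2 lower, Tfrc (−1.50) and Slc40a1 (−0.85). Ad.DKK-1 gave 1 higher and 3 lower, Slc40a1 (−0.93) and biliverdin reductase Blvra (−0.69) among them. Over all genes, 12.6% were higher and 13.1% lower with ICG-001, and 14.5% and 20.8% with Ad.DKK-1. Of 8 genes that supply NADPH, 3 were higher with FJ9: the pentose phosphate enzymes Taldo1 (0.91) and Tkt (0.88), and Nampt (0.63). None was lower with FJ9, and the all-gene share higher was 11.6%. Compared with the vehicle of ICG-001, FJ9 had 2 higher and 1 lower, beside 15.8% and 17.2%. There Tkt stood at 0.55, under 1.5-fold, and Me1 was the 1 lower, at −0.86. With ICG-001 none was higher and 1 lower, Idh1 (−1.20), and with Ad.DKK-1 none was higher and 1 lower, Pgls (−0.78). The all-gene shares of ICG-001 and Ad.DKK-1 given above apply to these counts too.

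The list named for conjugate export also holds Slc3a2 and Slc6a6, which are not conjugate pumps. Of its 7 transporters, 3 were higher with FJ9 and none lower, beside 11.6% and 14.8% of all genes. They were the conjugate pump Abcc4 (2.04), the amino acid transporter heavy chain Slc3a2, which partners Slc7a11 (1.63), and Abcc3 (0.81). Abcc4 and Slc3a2 rose in the limma mean, with Abcc4 at 0.91 with Ad.DKK-1 and 0.50 with ICG-001. Slc6a6, the taurine transporter, was lower by 1.67 with ICG-001 and 0.99 with Ad.DKK-1 and fell in the limma mean.

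**Figure D5:**
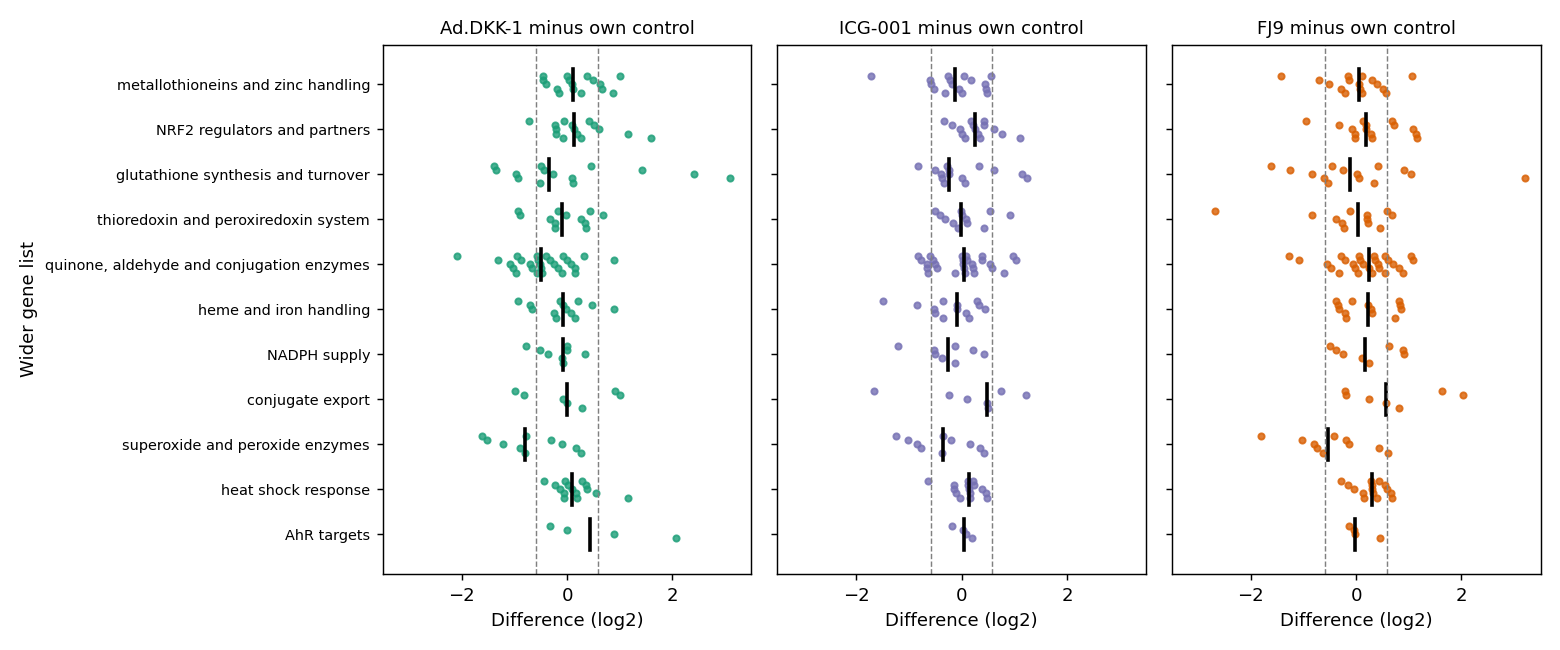
Difference from own control (log2) of every gene of the wider lists past the level filter, the 10 named genes left out; a point is 1 gene, black bars are list medians and dashed lines mark 1.5-fold. With FJ9 the list named for conjugate export, which also holds Slc3a2 and Slc6a6, has the highest median (0.56) and the superoxide and peroxide list the lowest (−0.53).

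Genes whose levels followed the mean of the 10 most closely over the 6 arrays were sought among other genes past the level filter. An SD of at least 0.5 was required. The search skipped symbols of uncharacterized loci (LOC, RGD and MGC), microRNAs, small nucleolar RNAs and olfactory or vomeronasal receptors. The 10 closest were Acot2, an acyl-CoA thioesterase (Pearson's r of 0.98), Sgf29 (0.98), the phosphatase gene Dusp2 (0.97), Arrdc3 (0.95), Srfbp1 (0.94), the mitochondrial iron importer Slc25a37 (0.94), Abcc4 (0.94), N4bp2l1 (0.93), Foxq1 (0.93) and Stmn1 (0.93). Their FJ9 differences ran from 1.17 for Sgf29 to 4.47 for Dusp2, which the choice by likeness to a profile led by the FJ9 array fixed. Dusp2, N4bp2l1 and Foxq1 passed the level filter only through that array, with means of 6.34, 6.13 and 6.36 over the other 5. The 5 closest to Mt1 alone were Cpt1a, which admits fatty acids to mitochondria (0.96), Arrdc3 (0.95), Acot2 (0.94), Sgf29 (0.92) and Car11 (0.92). These points share 1 high array, so the order among them is a description of 6 arrays.

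Cell type markers were also read. Of the 15 stellate and myofibroblast markers on the array, 13 passed the level filter, against 2 of 11 hepatocyte, 3 of 5 endothelial, 3 of 4 cholangiocyte and 3 of 6 lymphocyte markers. The filter passed 10025 of all 14322 named genes, so these counts alone do not settle which cells were present. Against own controls, 9 of the 15 stellate and myofibroblast markers were past 1.5-fold lower with Ad.DKK-1, 4 with ICG-001 and 7 with FJ9, and none was higher. The shares lower among genes past the filter were 20.8%, 13.1% and 14.8%, while all 15 markers were counted. The other stellate markers did not pass 1.5-fold, Vim (0.02, 0.05 and 0.04) and Col1a1 (−0.19, −0.18 and −0.23) among them. Against the exchanged vehicles, ICG-001 had 1 stellate marker higher (Des, 0.92) and 2 lower, beside 12.5% and 12.2% of genes past the filter. FJ9 had none higher and 8 lower, beside 15.8% and 17.2%. The mean level of the list lay between 10.05 and 11.0. Hepatocytes are a main site of metallothionein in liver. The mean level of the 11 hepatocyte markers was 6.10 with FJ9 and 6.17 on its vehicle. Of the 11, filtered or not, none was higher and 2 were lower past 1.5-fold, Ttr (−0.72) and Cps1 (−1.22). Without the filter, 1516 of 14322 genes were higher and 1764 lower. Against the vehicle of ICG-001 none was higher and 4 lower, beside 15.8% and 17.2% of genes past the filter. The part of hepatocytes in the metallothionein levels was not tested. Dkk1 read 6.01 with Ad.DKK-1 and 5.85 with Ad.GFP, below the level filter; since the species and portion of the transgene are not stated, the probe set is no check of that group. Array medians ran from 7.01 to 7.28.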

How the data were processed

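The authors deposited 1 log2 value for each probe set and array; the submitters' processing notes name Affymetrix Expression Console and RMA. Their versions and settings are not stated in the sources used here. All 6 columns were used as deposited, between 4.00 and 13.8, with a floor at 4. The number of arrays limits the precision.

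The platform annotation listed 15415 of 26988 probe sets, 15092 with 1 symbol and 323 with several; the other 11573 are unnamed here. Entrez identifiers matched 15062 to RefSeq (GRCr8), including all 10 genes of the list. Genes with a mean up to 6.39 were left out.

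Members, lists and tests were chosen with earlier results of these data known. Named were the 10 members; of each wider list up to 3 others with the largest differences past 1.5-fold per treatment; Nfe2l2, Keap1, Mtf1, Bach1 and Slc7a11; and the genes most like the members or Mt1. limma 3.58.1 in R 4.3.3 (lmFit, eBayes with a trend, two-sided) ran with the pair as a block, taken from the labels. It was also run on simulated data. The simulated shift was the same in all 3 treated arrays, so that run does not stand for unlike agents. Pools of 1 array measure no spread between animals. Alternatives were other scalings, the other vehicle, probe set means, no level filter, 2-fold, no block, no trend and each pair left out. Sequences are not shown.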

Additional observations from a re-analysis of the deposited data

Results flagged for a closer look

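Some of the named genes were at least 1.5-fold from their own control in opposite directions in 2 treatments; with 1 array a group none of these differences was tested. None of the 10 listed stress genes was among them. Txnip showed the widest gap, 3.60 between its differences with ICG-001 (0.92) and FJ9 (−2.68), and the ICG-001 value was −0.08 against the vehicle of FJ9. Tfrc stood at −1.50 with ICG-001 and 0.86 with FJ9, a gap of −2.36, and at −1.47 and 0.83 against the exchanged vehicles. Slc40a1 was lower with Ad.DKK-1 (−0.93) and ICG-001 (−0.85) and higher with FJ9 (0.81), gaps of −1.75 and −1.66; against the exchanged vehicles the compounds read −0.53 and 0.49, both under 1.5-fold. Bach2, a relative of Bach1, was higher with ICG-001 (1.12) and lower with Ad.DKK-1 (−0.72) and FJ9 (−0.96), gaps of −1.84 and 2.07; it passed the level filter only through the ICG-001 array, with a mean of 6.15 over the other 5. Car11 was lower with Ad.DKK-1 (−0.66) and higher with FJ9 (1.22), a gap of −1.89.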

How the results depend on the processing

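Of 119 recomputed differences of the 10 genes, 110 moved by less than 0.34 (the SD of the vehicle difference over genes), 8 moved by more and 1 that was past 1.5-fold reversed: Mt2A with ICG-001, at −0.34 against the other vehicle. Another 4 that were under 1.5-fold also changed sign. Against the other vehicle, ICG-001 read 0.09 for Nqo1, −0.09 for Hmox1 and −0.03 for Akr1b8, and with centring Ad.DKK-1 read 0.045 for Mt1. Centring, repeated quantile normalization and loess, with 30 differences each, moved none by more than 0.34. Under the other vehicle 12 moved by less, 7 by more and 1 reversed. With probe set means 8 moved by less and 1 by more. The stability of the values thus holds for the scalings more than for the vehicle. The other vehicle left 1 gene higher with ICG-001 in place of 3. At 2-fold, 2 of the 10 were higher with Ad.DKK-1 and 0 lower with FJ9, and over all genes 400 were higher and 793 lower with Ad.DKK-1, 290 and 329 with ICG-001, and 245 and 601 with FJ9. Median centring gave 2218 higher and 754 lower genes with ICG-001. Without the level filter, 3236 genes were lower with Ad.DKK-1 and 2337 with ICG-001. The limma count of listed genes called higher was 6; it was 3 with repeated quantile normalization, 2 with loess, 2 without a trend, and from 2 to 7 with a pair left out. The lowest, 2, came without the FJ9 pair. Over all genes, limma called 357 higher and 503 lower; centring gave 247 lower, no trend 221 higher, and leaving out a pair 165 to 269 higher, the lowest without the ICG-001 pair. With no replicate block (no term for the pair), 1 listed gene was called higher, and 167 genes were called higher and 255 lower. The causes were not tested. Probe sets near the floor have little range to fall, and 1 array a group leaves single differences without an error.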

Other observations

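The superoxide and hydrogen peroxide list holds enzymes that make or remove these oxidants. Of 10 past the level filter, 5 were lower and 1 higher with FJ9, 6 and 0 with Ad.DKK-1 and 4 and 0 with ICG-001, with medians of −0.53, −0.79 and −0.36. Over all genes 14.8% were lower and 11.6% higher with FJ9, 20.8% and 14.5% with Ad.DKK-1, and 13.1% and 12.6% with ICG-001. Cybb, the catalytic subunit of the phagocyte NADPH oxidase, was lower by 1.81 with FJ9, 1.62 with Ad.DKK-1 and 1.25 with ICG-001, and fell in the limma mean over the 3 pairs, as did the mitochondrial carrier Ucp2. Cybb is a gene of phagocytes as well. Of 12 macrophage markers, counted without the level filter, 4 were past 1.5-fold lower with FJ9, 9 with Ad.DKK-1 and 7 with ICG-001. Of all 14322 genes without the filter, 1764, 3236 and 2337 were lower in the same order. The other macrophage markers did not pass 1.5-fold, and the part of these cells in the level of Cybb was not tested. Nox4 was lower by 1.03 with FJ9, Cyba by 0.79, and the extracellular superoxide dismutase Sod3 differed by −1.53 with Ad.DKK-1. Sod2 with ICG-001 differed by −0.84 from its own vehicle and by −1.75 from that of FJ9, and the vehicle arrays differed by 0.91.

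Heat shock genes also answer to protein-reactive compounds. Of 15 genes, 2 were higher with FJ9 (the mitochondrial chaperones Hspe1 at 0.69 and Hspd1 at 0.66) and none lower, near the 11.6% of all genes that were higher, with a median of 0.31. Against the vehicle of ICG-001, 5 were higher, beside 15.8%. Hspb8 was higher with Ad.DKK-1 (1.16) and Bag3 lower with ICG-001 (−0.64).

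Of the aryl hydrocarbon receptor list, 4 genes beside Nqo1 passed the level filter, and 2 were higher with Ad.DKK-1, beside 14.5% of all genes: the receptor gene Ahr (2.06) and Aldh3a1 (0.89). Cyp1b1, a classic target of the receptor named after its values were seen, differed by −0.01 with Ad.DKK-1 and −0.04 with FJ9.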
